A study of Mus musculus with 2 samples.

Results

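The Dlx genes are the mouse relatives of Drosophila Distal-less, and the family comprises Dlx1, Dlx2, Dlx3, Dlx4, Dlx5 and Dlx6. All 6 were found by symbol among the 21896 genes for which RNA was measured in the VZ–SVZ, the ventricular and subventricular zones of the embryonic mouse cortex at E13.5. One C57/BL6 library was made from Rcor2fl/fl embryos, which carry floxed alleles of Rcor2 and served as the control, and 1 from Rcor2cko embryos of the same crosses, where Cre under the Nestin promoter removes the floxed part of the gene. Rcor2 encodes a partner of the histone demethylase LSD1. Nestin-Cre acts in neural progenitors throughout the nervous system, so the deletion is not restricted to the cortex. Whether the control embryos carried Cre, and how many embryos each library holds, is not given in the sources used here. The libraries are called control and cko. Levels are FPKM, fragments scaled to transcript length and to the fragments of the library.

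Dlx genes encode homeodomain transcription factors and lie in convergently transcribed pairs that share enhancers. Dlx1, Dlx2, Dlx5 and Dlx6 are the members expressed in the forebrain, where they mark the ganglionic eminences of the ventral telencephalon and drive the differentiation and migration of GABAergic neurons. Dlx1 and Dlx2 are switched on in progenitors, before Dlx5 and Dlx6. Dlx3 and Dlx4 are known from skin, bone, teeth and placenta. In the cortical VZ–SVZ, whose progenitors make glutamatergic neurons, Dlx RNA is normally low and is attributed largely to immigrating interneurons.

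Of the 6 Dlx genes, 4 were higher in the cko library and the other two were not detected above the limit of the libraries. Dlx1 stood at 4.87 FPKM in the control library and 13.9 FPKM in the cko library, Dlx2 at 2.96 and 11.2 FPKM, Dlx5 at 2.25 and 6.60 FPKM, and Dlx6 at 0.121 and 2.21 FPKM. Summed over the family, the level was 10.2 FPKM in the control library and 33.9 FPKM in the cko library, a ratio of 3.32. Since each genotype has 1 library, no difference could be checked against replicates, and the comparisons are of the 2 libraries, not of the genotypes.

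Rcor2 itself stood at 90.6 FPKM in the control library and 55.7 FPKM in the cko library, a log2 change of -0.70. This level is for the whole gene, including exons outside the floxed part. For the floxed exons, the authors reported that RNA was absent from Rcor2cko cortex at E13.5. The low FPKM values fell on steps of whole fragments, from which scaling totals of 18841070 fragments in the control library and 25481460 in the cko library were recovered. Intervals derived from fragments cover counting error only. The libraries also differed in sex-linked transcripts, with Xist at 177 and 0.109 FPKM and the Y-linked Eif2s3y at 0 and 19.8 FPKM in the control and the cko, and in Ttr, the main transcript of the choroid plexus, which was listed at 0 and at 57.8 FPKM. These differences coincide with the genotype and cannot be told apart from it. The log2 change of (FPKM + 0.1), cko over control, had a median of -0.03 over the 11777 genes that reached 1 FPKM in either library, and its SD over these genes was 0.45.

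The 3 pairs lie on different chromosomes (GENCODE vM1 on NCBIM37, the assembly called mm9). Dlx1 occupies chr2:71366170-71372038 on the plus strand and Dlx2 chr2:71381466-71384811 on the minus strand, with 9.4 kb between them. Dlx6 occupies chr6:6813334-6818568 on the plus strand and Dlx5 chr6:6827805-6832085 on the minus strand, 9.2 kb apart. Dlx3 lies at chr11:94981403-94986610 on the plus strand and Dlx4 at chr11:95001770-95007577 on the minus strand, 15.2 kb apart. In all 3 pairs the genes point towards each other. Both expressed pairs also carry a long noncoding RNA on the opposite strand of a member. Dlx1as spans chr2:71354511-71375948 on the minus strand and shares 335 exonic bases with Dlx1. Dlx6os1, also known as Evf2, spans chr6:6770189-6819533 on the minus strand and encloses Dlx6 without sharing exonic bases with it. No stretch of 25 bases was shared between the transcripts of any of the 15 combinations of 2 members, so the family members can be counted apart by sequence.

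The sequence before the transcription start is shown for the members with an entry in the RefSeq table (GRCm38.p6), Dlx1 and Dlx2, because their start regions differ in kind from those of the noncoding RNA at the other expressed pair. Each is the strand of the gene, 5′ to 3′, 250 bases ending at the base before the start, and capitals mark CG dinucleotides. Dlx1 has its window at chr2:71529195-71529444 (plus strand) and Dlx2 at chr2:71546755-71547004 (minus strand). The starts are those of RefSeq. For Dlx1, the longest GENCODE vM1 transcript has 4111 nt, against 2779 nt for the model counted here. The Dlx1 window may therefore lie within a longer annotated transcript.
Dlx1: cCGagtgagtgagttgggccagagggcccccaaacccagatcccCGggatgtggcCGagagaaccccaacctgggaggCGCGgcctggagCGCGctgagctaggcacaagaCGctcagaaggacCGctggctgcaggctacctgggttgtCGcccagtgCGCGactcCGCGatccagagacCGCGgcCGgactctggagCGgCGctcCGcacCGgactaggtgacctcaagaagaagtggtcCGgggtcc
Dlx2: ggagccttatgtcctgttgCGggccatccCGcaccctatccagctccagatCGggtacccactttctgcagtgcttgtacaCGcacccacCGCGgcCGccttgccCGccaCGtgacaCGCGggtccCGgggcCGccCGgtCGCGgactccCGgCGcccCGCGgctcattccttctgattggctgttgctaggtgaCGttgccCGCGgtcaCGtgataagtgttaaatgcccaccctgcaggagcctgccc
The Dlx1 window holds 22 CG dinucleotides and 68% G and C, and the Dlx2 window 24 and 66.4%, whereas the median over the 32851 windows of the table was 6 CG dinucleotides and 52.4%. By G and C content they stood at the 87.8th and the 85.2nd percentile.

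Dlx6os1 has 2 annotated starts in that table, with windows at chr6:6861684-6861933 and chr6:6869534-6869783 on the minus strand. They are shown for comparison, with capitals marking TAATTA, the core that homeodomains including those of the DLX proteins can bind.
Dlx6os1, first window: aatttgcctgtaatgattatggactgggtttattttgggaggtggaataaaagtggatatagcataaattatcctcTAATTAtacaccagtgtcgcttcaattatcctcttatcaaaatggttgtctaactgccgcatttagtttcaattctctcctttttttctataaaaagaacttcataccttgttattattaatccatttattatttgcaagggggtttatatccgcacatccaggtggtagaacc
Dlx6os1, second window: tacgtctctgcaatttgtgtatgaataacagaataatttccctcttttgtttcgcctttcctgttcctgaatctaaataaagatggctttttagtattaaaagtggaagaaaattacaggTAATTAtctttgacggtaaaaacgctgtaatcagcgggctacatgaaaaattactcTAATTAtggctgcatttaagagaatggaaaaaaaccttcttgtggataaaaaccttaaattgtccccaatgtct
These windows hold 34% and 33.2% G and C, at the 3.87th and the 3.17th percentile. TAATTA, which reads the same on both strands, occurs once in the first and at 2 places in the second window, and was present in 4.84% of all windows. Neither the Dlx1 nor the Dlx2 window holds TAATTA, the GLI-type word GACCACCC (0.703% of all windows) or the E-box CAGCTG (13.0% of all windows, a palindrome), each searched on both strands. The words do not overlap each other. A match describes these letters only, and binding was not measured here.

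**Figure D1:**
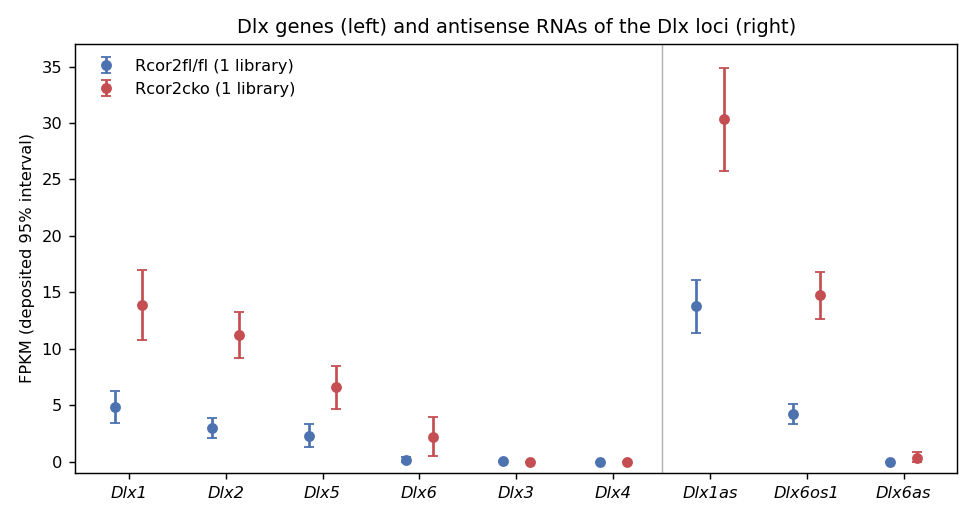
FPKM (linear axis) of the 6 Dlx genes and the antisense RNAs in the control (Rcor2fl/fl) and the cko (Rcor2cko) library, 1 library each, with error bars for the 95% FPKM interval deposited with each value. For Dlx5 in the control library, the bar combines the deposited intervals of its 2 transcripts. The intervals of the 2 libraries do not overlap for Dlx1, Dlx2, Dlx5 and Dlx6, and Dlx3 and Dlx4 lie at or near 0.

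Dlx1 and Dlx2 were the highest members in both libraries, as the plot of levels by library shows. For Dlx1 (NM_010053), the deposited 95% interval was 3.45 to 6.28 FPKM in the control library and 10.8 to 17.0 FPKM in the cko library. Its log2 change was 1.49 on FPKM + 0.1. The fragments recovered for Dlx1 were 237 in the control and 912 in the cko, a 2.85-fold difference after scaling, with an exact interval of 2.47 to 3.31. For Dlx2 (NM_010054), the deposited intervals were 2.07 to 3.84 and 9.20 to 13.3 FPKM, and the log2 change was 1.89. Its 127 and 651 fragments gave a 3.80-fold difference with an exact interval of 3.14 to 4.63. When fragments were tested over 12093 genes (exact binomial, two-sided, Benjamini-Hochberg adjusted), the 2 libraries differed in Dlx1 (adjusted p = 4.88e-53) and in Dlx2 (adjusted p = 4.66e-53).

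As counted here, Dlx2 differed between the libraries by more than its partner. The log2 change of Dlx2 exceeded that of Dlx1 by 0.40 on FPKM + 0.1 and by 0.41 in fragments, with an exact interval of 0.06 to 0.77. This interval covers counting error only. Dlx1 shares exonic bases with Dlx1as, whose log2 change was 1.14, and the strand setting of the counting is not given. The part that shared reads have in the difference was not tested. Dlx2 stood at 0.608 times the level of Dlx1 in the control library and at 0.810 times in the cko library. The level of Dlx1 exceeded that of Dlx2 by 1.91 FPKM in the control library, where the combined half-width of the deposited 95% intervals was 1.67 FPKM, and by 2.64 FPKM in the cko library, within a combined half-width of 3.72 FPKM.

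Dlx5 and Dlx6 also differed in the same direction. For Dlx5, the interval was 1.31 to 3.29 FPKM in the control library, combined from the deposited intervals of its transcripts, and 4.68 to 8.51 FPKM in the cko library, and the log2 change was 1.51. The control values list 2 transcripts of Dlx5, of which NM_010056 held 90.8% of the level and NM_198854 9.22%. Their FPKM correspond to 51 fragments in all. The cko values give Dlx5 per gene, which corresponds to between 189 and 202 fragments depending on the transcript length assumed. The ratio of FPKM was 2.93, and the exact interval over both lengths ran from 2.01 to 4.09. Dlx5 was not part of the test of fragments, which was restricted to genes with 1 transcript.

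Dlx6 (NM_010057) was near the limit of detection in the control library, with 2 fragments and a deposited interval of 0 to 0.450 FPKM. In the cko library it had 49 fragments and an interval of 0.459 to 3.96 FPKM. Its log2 change was 3.39 on FPKM + 0.1. The ratio of fragments was 18.3-fold, and with so few fragments in the control its exact interval was wide, from 4.79 to 155.0 (adjusted p = 1.34e-08 in the exact binomial test of fragments). The log2 change of Dlx6 exceeded that of Dlx5 by 1.87 on FPKM + 0.1. In fragments the excess was 2.63 to 2.72 for the 2 lengths of Dlx5, and the exact intervals together ran from 0.61 to 5.85. Dlx6 stood at 0.0539 times the level of Dlx5 in the control library and at 0.335 times in the cko library. The Dlx6 model counted here has 1071 nt, against 2216 nt for the longest GENCODE vM1 transcript. Reads from bases outside the model may not have been counted. With a pseudocount of 1 FPKM in place of 0.1, the excess of Dlx6 was 0.29.

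Dlx3 and Dlx4 did not exceed the limit of detection, set at 3 fragments. For Dlx3 (NM_010055), 1 fragment was found in the control library (0.0220 FPKM) and none in the cko library. Dlx4 (NM_007867) was listed at 0 in both libraries. A count of 0 allows up to 3 fragments, which corresponds to 0.0979 FPKM for Dlx4 in the control library, and to 0.0490 FPKM for Dlx3 and 0.0727 FPKM for Dlx4 in the cko library. For the single Dlx3 fragment of the control library, the deposited upper bound was 0.0629 FPKM. No fold change is given for this pair, and its 2 genes were not compared with each other. Markers of the tissues in which they are known were low too. Head mesenchyme and bone markers summed to 2.64 FPKM in the control and 3.87 FPKM in the cko over 8 genes, of which 2 passed the filter, Prrx1 with a log2 change of 0.37 and Prrx2 with 0.20. The collagen genes Col1a1 (0.0707 and 0.236 FPKM) and Col1a2 (0.257 and 0.580 FPKM, 24 and 73 fragments, adjusted p = 0.00257 in the exact binomial test), named after their values were seen, were under the filter and higher in the cko library. Surface ectoderm markers summed to 3.42 and 3.34 FPKM over 6 genes, of which 2 passed, the keratins Krt14 with a log2 change of 0.16 and Krt5 with -0.49. The keratins Krt8 and Krt18, also named after their values were seen, were under the filter and listed at 0 in the control, with 0.122 FPKM (5 fragments) and 0.393 FPKM (12 fragments, adjusted p = 0.0124 in the exact binomial test) in the cko.

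Read against all genes, 4 of the 6 members passed the filter, a level of 1 FPKM or more in either library, and all 4 of these differed by more than 1.5-fold upwards. Dlx6 passed the filter through the cko library alone, and 65.5% of the 281 genes that passed in this way were more than 1.5-fold higher, which the filter favours. Dlx1, Dlx2 and Dlx5 reached 1 FPKM in both libraries, as did 11331 genes, of which 2.31% were more than 1.5-fold higher and 1.13% lower. Of all 11777 genes that passed, 446 (3.79%) were more than 1.5-fold higher in the cko library and 207 (1.76%) more than 1.5-fold lower. By log2 change, Dlx6 ranked 19th, Dlx2 42nd, Dlx5 73rd and Dlx1 75th from the top of these genes. In the exact test of fragments, Dlx1, Dlx2 and Dlx6 were among the genes with an adjusted p below 0.01 and a more than 1.5-fold higher level, which were 2.61% of the genes tested, while Dlx3 was tested and not among them.

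**Figure D2:**
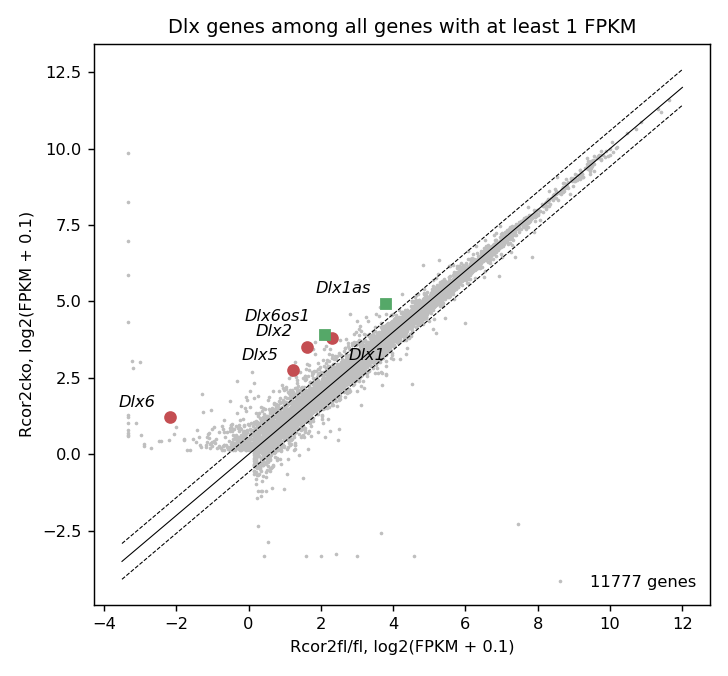
Log2(FPKM + 0.1) in the control (Rcor2fl/fl) library (x) against the cko (Rcor2cko) library (y) for the 11777 genes that reached 1 FPKM in either library (grey), with Dlx genes as red circles and the antisense RNAs Dlx1as and Dlx6os1 as green squares. The solid line marks equal levels and the dashed lines a 1.5-fold difference, and all 6 marked RNAs lie above the upper dashed line.

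Dlx1 accounted for 47.6% of the summed FPKM in the control library and 40.9% in the cko library, Dlx2 for 29.0% and 33.1%, and Dlx5 for 22.0% and 19.4%. Dlx6 accounted for 1.19% and 6.51%. The order Dlx1, Dlx2, Dlx5, Dlx6 was the same in both libraries. Neighbours in this order differed by more than the combined half-width of their intervals, except Dlx2 and Dlx5 in the control library (0.710 FPKM, half-width 1.37 FPKM) and Dlx1 and Dlx2 in the cko library. By level among the 21896 genes, Dlx1 moved from the 60.7th to the 78.7th percentile, Dlx2 from the 55.3rd to the 74.5th, Dlx5 from the 52.8th to the 65.3rd and Dlx6 from the 36.4th to the 52.5th.

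Members of different pairs were compared after their values were seen. The log2 change of Dlx5 minus that of Dlx1 was 0.02 on FPKM + 0.1, and in fragments the exact intervals for the 2 lengths of Dlx5 together ran from -0.56 to 0.56. Dlx5 minus Dlx2 was -0.38, with exact intervals that together ran from -1.01 to 0.18. Both intervals include 0, and differences within them could not be told from counting error.

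The noncoding RNAs of the 2 expressed pairs were higher in the cko library as well. Dlx1as (NR_002854) stood at 13.7 FPKM in the control and 30.3 FPKM in the cko, with a log2 change of 1.14. It was the most abundant RNA of the Dlx loci in both libraries. Its 673 and 2002 fragments gave a log2 ratio with an exact interval of 1.01 to 1.27 (adjusted p = 6.22e-76, exact binomial test). Dlx6os1 (NR_015388), which is known to recruit DLX proteins to the enhancers of the Dlx5 and Dlx6 pair, stood at 4.19 and 14.7 FPKM with a log2 change of 1.79. Its 320 and 1520 fragments gave an exact interval of 1.64 to 1.99 (adjusted p = 2.89e-114, exact binomial test). Dlx6as, a shorter transcript model at the same locus (NR_002839), was listed at 0 in the control library and at 0.306 FPKM in the cko library, from 9 fragments, and did not pass the filter.

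Sense and antisense partners differed in size of change, in comparisons chosen after their values were seen. The log2 change of Dlx1as was below that of Dlx1, with a difference in fragments of -0.37 and an exact interval of -0.62 to -0.13. That of Dlx6os1 was below that of Dlx6, with a difference of -2.37 and an interval of -5.46 to -0.42. Dlx6os1 and Dlx2 differed by -0.11, with an interval of -0.45 to 0.22. The library kit keeps the strand of the RNA, but whether the counting used it is not given in the sources used here. Without strand, reads from exonic bases shared by Dlx1 and Dlx1as cannot be assigned to either. The 335 shared bases are those of the GENCODE vM1 exons. The Dlx1as model counted here has 2793 nt, against 700 nt for the longest GENCODE vM1 transcript. Its overlap with Dlx1 was not measured and may be larger.

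**Figure D3:**
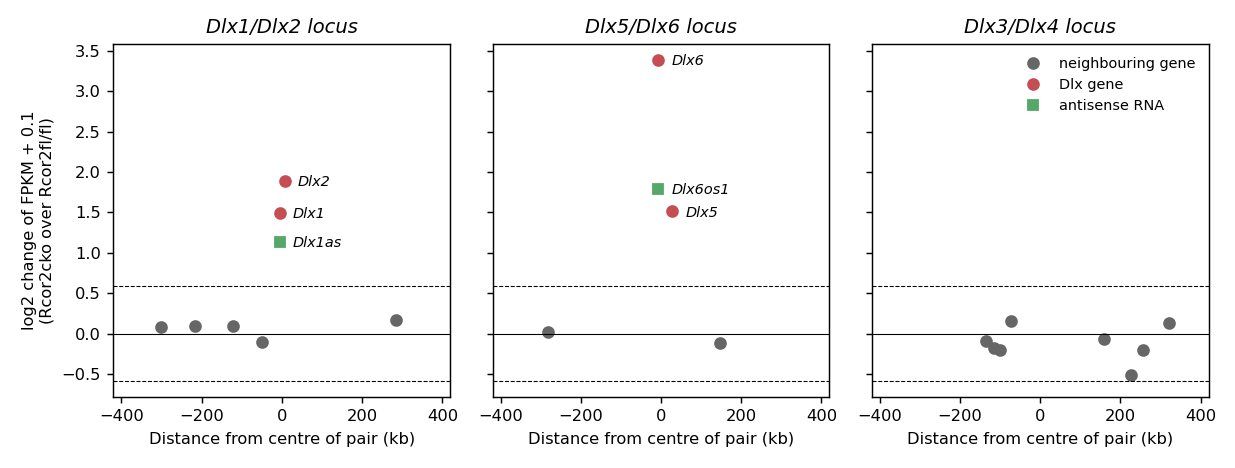
Log2 change of (FPKM + 0.1), cko over control, of the genes within 300 kb of each Dlx pair, against distance from the centre of the pair in kb, with Dlx genes, their antisense RNAs and neighbouring genes that passed the filter. Positions are those of the loci deposited with the values, in which Dlx6 shares a locus with Dlx6os1, and Dlx1 with Dlx1as. Dlx6 is therefore drawn at -6.27 kb and Dlx5 at 28.6 kb, although the annotated genes lie 9.2 kb apart. Neighbours lie between -0.51 and 0.17, while Dlx1, Dlx2, Dlx5, Dlx6, Dlx1as and Dlx6os1 lie between 1.14 and 3.39.

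Within 300 kb of the pairs lie 21 other genes, of which 15 passed the filter, with a median log2 change of -0.07. Distances were taken from the loci deposited with the values, in which Dlx6 is merged with Dlx6os1. Of these, 0 differed by more than 1.5-fold in either direction. Over all genes the shares were 3.79% higher and 1.76% lower, which for so few genes is not far from 0, so the count says nothing particular about the neighbours. Near Dlx1 and Dlx2, the closest gene was Metap1d, 4.3 kb away, which encodes a mitochondrial methionine aminopeptidase and stood at 14.1 and 13.1 FPKM in the control and the cko. The other neighbours of that pair that passed were Hat1, Slc25a12, Dync1i2 and the integrin gene Itga6, and all 5 lay between -0.11 and 0.17. Near Dlx5 and Dlx6, Shfm1, a proteasome component, stood at 223 and 227 FPKM (log2 change 0.02), and Acn9, 73.9 kb from the pair, at 8.95 and 8.20 FPKM (-0.12). Near Dlx3 and Dlx4, 8 of 13 neighbours passed, and they ranged from -0.51 for Fam117a to 0.16 for the integrin gene Itga3, with Ppp1r9b, Samd14, Pdk2, Myst2, Slc35b1 and Spop between. The undetected pair thus lies between genes that were expressed in both libraries, such as Samd14 at 63.4 and 56.1 FPKM and Spop at 36.2 and 39.6 FPKM. The neighbours that did not pass were Gm1631, Tmem92-ps, Col1a1, Sgca, Hils1 and Tac4.

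Several transcription factors of ventral telencephalic patterning were near 0 in the control library and detected in the cko library. They are listed as upstream ventral factors, but whether each acts before the Dlx genes was not tested here. Of 11 such factors, 9 passed the filter, 6 were more than 1.5-fold higher (3.79% of all genes), 0 were lower (1.76%), and the median log2 change was 1.26 (also with genes listed at 0 set at their lower bound), against -0.03 over all genes. Of the 9, 6 passed through the cko library alone, which favours higher values, and 5 of these were past 1.5-fold. Among the 3 that reached 1 FPKM in both libraries, 1 was past 1.5-fold and the median was -0.01. Gsx2, the homeobox gene of lateral ganglionic eminence progenitors that is needed for normal Dlx expression there, was listed at 0 in the control library and at 1.64 FPKM in the cko library, from 61 fragments, at least 15.1-fold higher when set against 3 fragments in the control library. The exact lower limit of its log2 ratio, which includes the counting error of both libraries, was 3.57. Six3, a homeobox gene of the early forebrain and of striatal precursors, was listed at 0 and at 1.43 FPKM, from 127 fragments, at least 31.4-fold higher on the same basis, with an exact lower limit of 4.65 on the log2 scale. Olig1 (0.242 and 1.31 FPKM) and Olig2 (0.189 and 1.28 FPKM), bHLH factors of ventral progenitors named here after their values were seen, were also past 1.5-fold. Gli3, which encodes the main repressor form of the GLI factors, stood at 14.7 and 13.7 FPKM with a log2 change of -0.10. Nkx2-1, the defining factor of the medial ganglionic eminence, was low in both libraries, at 0.128 and 0.190 FPKM.

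Among genes known to be reduced when Dlx1 and Dlx2 are lost from the ventral telencephalon, the enzymes and transporter of GABA signalling were higher in the cko library. Gad1, which makes GABA, stood at 4.65 FPKM in the control and 10.7 FPKM in the cko (log2 change 1.18). Gad2, the other GABA-synthesising enzyme, stood at 2.33 and 8.10 FPKM (1.76), and Slc32a1, the vesicular GABA transporter, at 1.95 and 4.31 FPKM (1.10). Of the 29 genes of that list found in the table, 26 passed the filter, 14 were more than 1.5-fold higher (3.79% of all genes), 2 more than 1.5-fold lower (1.76%) and 10 neither, with a median log2 change of 0.63. Among the 24 that reached 1 FPKM in both libraries, 12 were higher and 2 lower past 1.5-fold, against 2.31% and 1.13% of all such genes, with a median of 0.54.

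Among the other genes of that list, Sst, the interneuron peptide somatostatin, stood at 6.95 and 24.1 FPKM (log2 change 1.78). The zinc-finger genes Sp9, at 2.07 and 5.50 FPKM (1.37), and Sp8, at 1.72 and 2.65 FPKM (0.59), both act in interneurons of the lateral and caudal eminences. The genes that were lower were Calb2, the calcium-binding protein calretinin, at 4.25 and 1.37 FPKM (-1.56), and Npas1, a bHLH-PAS factor of interneurons, at 3.05 and 1.54 FPKM (-0.94). Lhx6, the LIM-homeobox gene of interneurons from the medial eminence, stood at 10.4 and 10.7 FPKM (0.03).

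Genes known to rise when Dlx1 and Dlx2 are lost numbered 3, all linked to neurite growth or guidance. Pak3 had a log2 change of 0.22, Gap43 of 0.06 and Nrp2 of 0.03, none past 1.5-fold. Homeobox genes related to Dlx by sequence were mostly not expressed. Of 15, 3 passed the filter, 7 were listed at 0 in the control library and 5 in the cko library. Vax1, a homeobox gene of the ventral forebrain, was higher, at 0.645 and 1.68 FPKM (1.26). Emx2, a homeobox gene of the dorsal cortex, was lower, at 21.5 and 13.9 FPKM (-0.62), and its paralogue Emx1 had a log2 change of -0.34.

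**Figure D4:**
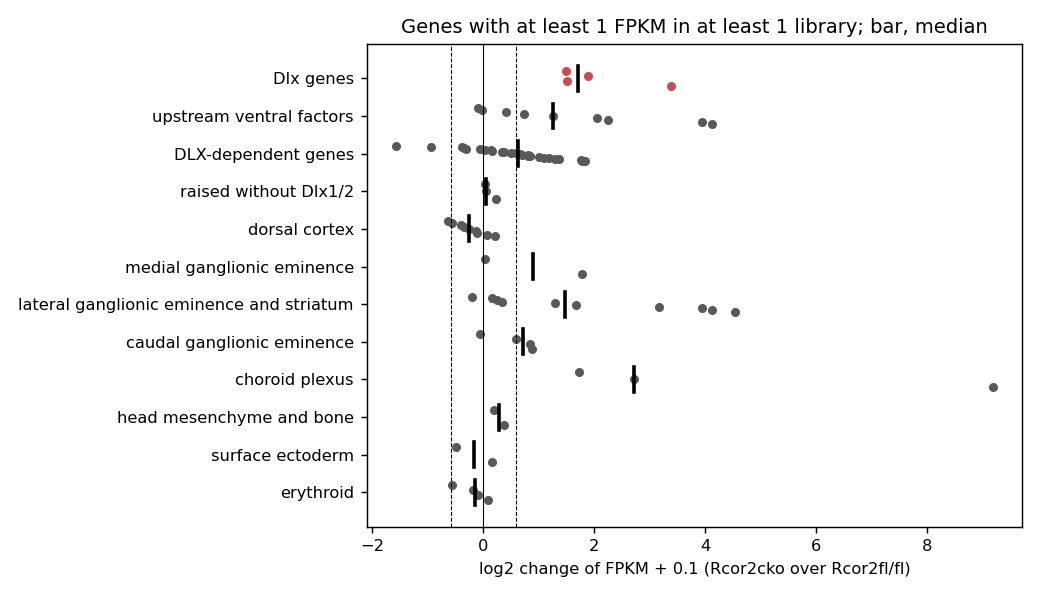
Log2 change of (FPKM + 0.1), cko over control, for the genes of each list that passed the filter, 1 point per gene and a bar at the median of the list, with dashed lines at 1.5-fold. The list of upstream ventral factors has a median of 1.26, the DLX-dependent genes of 0.63, the genes raised without Dlx1 and Dlx2 of 0.06 and the dorsal cortex markers of -0.25. Of the 9 upstream ventral factors shown, 6 passed through the cko library alone, which favours higher values. Among genes that reached 1 FPKM in both libraries, the medians were -0.01 for 3 upstream ventral factors and 0.54 for 24 DLX-dependent genes.

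Markers of other cell types that a cortical dissection could hold also differed in part between the libraries. Lateral ganglionic eminence and striatum markers summed to 81.5 FPKM in the control and 102 FPKM in the cko. Of 13 such genes 10 passed, 6 were more than 1.5-fold higher (3.79% of all genes) and 0 lower (1.76%). All 6 passed through the cko library alone, so the filter favoured that direction, and of the 4 that reached 1 FPKM in both libraries 0 were past 1.5-fold, with a median log2 change of 0.21. Isl1, a LIM-homeobox gene of striatal projection neurons, was listed at 0 and at 2.23 FPKM (132 fragments, at least 32.6-fold higher against 3 fragments, with an exact lower limit of 4.71 on the log2 scale), while the dopamine receptor gene Drd1a had a log2 change of -0.21. Gsx2 and Six3 belong to this list too. Caudal ganglionic eminence markers summed to 7.43 and 11.9 FPKM, and of 5 genes 4 passed. Of these, 3 were more than 1.5-fold higher (3.79% of all genes). They were 2 of the 3 that reached 1 FPKM in both libraries, against 2.31% of all such genes, and 1 that passed through cko alone. Among the 3 higher genes were Nr2f2 at 3.33 and 6.18 FPKM (0.87) and Htr3a (0.84). Prox1 had a log2 change of -0.06 and Vip was listed at 0 in both libraries. Medial ganglionic eminence markers summed to 17.6 and 35.1 FPKM, and of 5 genes 2 passed, Lhx6 and Sst, of which Sst was past 1.5-fold. In this list Nkx2-1 was under the filter, as was Lhx8 at 0 and 0.0221 FPKM.

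Markers of the choroid plexus, the tissue next to the medial cortex, summed to 1.04 and 62.9 FPKM. Of 7 genes 3 passed, all through the cko library alone, so that their direction was favoured by the filter (65.5% of all genes that passed in this way were more than 1.5-fold higher). These were Ttr, Kcne2 with a log2 change of 2.73 and Aqp1 with 1.73. In fragments, the exact lower limits of the log2 ratio were 8.24 for Ttr (0 and 1503 fragments), 1.97 for Kcne2 and 1.23 for Aqp1. The genes of this list under the filter were also listed higher in the cko library, some from few fragments. Dorsal cortex markers, which define the labelled tissue, were abundant, at 520 and 450 FPKM in sum. All 9 passed, 0 were more than 1.5-fold higher and 1, Emx2, was lower, with a median log2 change of -0.25. Tbr1 had the highest log2 change, 0.22, and Neurog2 the next, 0.06. Erythroid markers summed to 89.3 and 80.4 FPKM, and the 4 of 5 genes that passed stayed within 1.5-fold, with a median log2 change of -0.14. The part that other tissue in the dissections has in the differences of the Dlx genes was not tested. In these bulk libraries, more cells with Dlx RNA and more Dlx RNA per cell cannot be told apart.

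The genes with levels most like those of each Dlx gene were found by Euclidean distance over the 2 libraries on log2(FPKM + 0.1), which reads likeness in 2 values only. Nearest to Dlx1 were Dlx6os1 (distance 0.228), the potassium channel subunit gene Kcng1 (0.245, at 5.73 and 13.1 FPKM) and Ppp1r14c (0.317, at 4.28 and 11.6 FPKM). Among the genes nearest to Dlx2 were the mitochondrial carrier gene Ucp2 (0.141, at 3.05 and 10.2 FPKM) and Pid1 (0.188, at 3.37 and 10.9 FPKM). Nearest to Dlx5 were Crabp2, a cellular retinoic acid-binding protein (0.150, at 2.18 and 7.30 FPKM), Gm5607 (0.160) and Vat1l (0.215). Among the genes nearest to Dlx6 were Kcne2 (0.547) and Gcg (0.745).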

How the data were processed

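At E13.5, RNA of the cortical VZ–SVZ was measured in 1 Rcor2fl/fl (control) and 1 Rcor2cko (cko) library. The authors isolated RNA with RNeasy columns, prepared libraries with a stranded mRNA kit, mapped the reads to mm9 and deposited FPKM values with the bounds of a 95% interval. The submitters' processing notes name TopHat 1.3.3 and Cufflinks 1.2.0, and the annotation and strand setting of the counting are not given in the sources used here. The Rcor2fl/fl values have 27641 rows, 1 per transcript, and the Rcor2cko values 21896, 1 per gene. Libraries of E15.5 were not analysed here.

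Transcript rows were summed per gene, and genes that reached 1 FPKM in either library were compared by the log2 ratio of (FPKM + 0.1), which understates the change of low genes, and counted past 1.5-fold. Where a gene has a single transcript of 1000 nt or more, FPKM times the length less an offset (194.1 and 200.9 nt) is a whole multiple of the worth of 1 fragment. The step was fitted on 586 and 599 genes with 1 fragment, and among values not above 100 fragments 99.3% of 4019 and 99.4% of 3948 lay within 0.1 of a whole number. Fragments were recovered for 14350 genes, and the 12093 of them with at least 1 fragment were tested between the 2 libraries with an exact binomial test, two-sided, with Benjamini-Hochberg adjustment over them and Clopper-Pearson 95% intervals. For genes with several transcripts, the half-widths of the deposited intervals were added in quadrature. The lists were also counted separately for genes that reached 1 FPKM in both libraries and in the cko library alone, a split chosen after seeing the data. The limit of detection was set at 3 fragments. The steps were tested on simulated data. Python 3.11.15, numpy 2.4.6, pandas 2.3.3, scipy 1.17.1 and matplotlib 3.10.9 were used.

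The members and the gene lists were chosen with earlier results of these data known, the lists from textbook knowledge. The genes named were the Dlx genes and their antisense RNAs, the genes within 300 kb of a pair, the 2 highest and the lowest of each list by log2 change with Gad1, Gad2, Slc32a1, Sp8 and Sp9, the 3 nearest genes by level, and Rcor2. Others were named after their values were seen. The values of some genes are not reported here, although counts include them. The alternatives were other pseudocounts, scalings, filters and folds, the highest row per gene, non-overlapping deposited intervals, and recovered fragments in place of FPKM.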

Additional observations from a re-analysis of the deposited data

How the results depend on the processing

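Between 3 and 4 Dlx genes stayed past 1.5-fold under each of 12 alternatives, with 3 where at least 5 FPKM in 1 library or at least 1 FPKM in both was required, and no direction reversed. The log2 changes ranged from 1.34 to 1.53 for Dlx1, 1.63 to 1.93 for Dlx2, 1.23 to 1.65 for Dlx5 and 1.52 to 4.19 for Dlx6. With a pseudocount of 1 FPKM, which by construction shrinks low genes most, Dlx2 was at 1.63, Dlx6 at 1.52 and Dlx6 minus Dlx5 at 0.29. Over all genes, the numbers past 1.5-fold, higher and lower, were 262 and 128 where both libraries had to reach 1 FPKM, 139 and 69 where 1 had to reach 5 FPKM, 162 and 62 past 2-fold, 1287 and 672 with no filter, 220 and 81 with non-overlapping deposited intervals, 243 and 100 with a pseudocount of 1 FPKM, and 1214 higher with the highest row per gene, which drops transcripts from the Rcor2fl/fl library alone. Median, total and upper-quartile scaling subtracted factors of -0.03, -0.02 and -0.03 from every log2 change, which put Dlx1 at 1.53, 1.52 and 1.52.

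No paired analysis was possible because each genotype has 1 library, and for the same reason leaving out a replicate could not be done. Few fragments limit Dlx6 most, with 2 in the control, counted on a model shorter than its longest annotated transcript. Dlx3 and Dlx4 stay under the limit of detection.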
